A study of Arabidopsis thaliana with 18 samples.

Results

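The response of wild-type Arabidopsis thaliana root tips to the peptide TOLS2 is described here across gene functions and across expression levels. The comparison sets the 3 arrays titled wild-type with TOLS2 against the 3 titled wild-type control, 6 of the 18 arrays in the series. The rows used are the 16722 of 38408 rows of the deposited expression table to which the platform's annotation gives exactly 1 gene, and they stand for 16542 genes. Of the other rows, 759 were given several genes and 20927 none.

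Each sample was a pool of about 80 root tips of 1 cm, cut from 5-day-old seedlings grown under continuous light at 23 degrees. Seedlings had been moved for 3 h to medium that held 1 µM TOLS2 peptide or none. Both wild-type groups carry no mutation named in the labels, and replicates are called biological. The remaining 12 arrays came from the mutants rlk7-3 and puchi-2, each with and without the peptide, and entered the fit to estimate the spread of each row.

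TOLS2 is known as a small secreted peptide that acts in the root through the receptor-like kinase RLK7 and limits the formation of lateral root founder cells. LBD16, an auxin-induced member of the LOB-domain family, is known to start lateral roots and acts upstream of the TOLS2 gene. The AP2/ERF factor PUCHI shapes early lateral root primordia and acts downstream of the peptide. Lateral roots start from pericycle cells deep in the root, and their emergence needs changes in the walls of the overlying tissues.

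Values are log2 levels made by robust multi-array averaging (RMA), and a change is the mean of the TOLS2 arrays minus the mean of the control arrays on that scale, so that 1 stands for 2-fold. A row or gene was called, and is said to have risen or fallen, when its adjusted p in limma was under 0.05 (adjusted by Benjamini and Hochberg's method across 17481 rows, those with 1 or more genes). The 6 array medians lay between 6.20 and 6.25, and correlations between arrays over all rows lay between 0.987 and 0.991. Whole root tips mix many cell types, so a change in the number of cells of a type and a change in RNA per cell cannot be told apart.

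Limma called 310 of the 16722 rows (1.85%), of which 193 (1.15%) were higher with TOLS2 and 117 (0.7%) were lower. In each of the 310 the 3 treated arrays lay all above or all below the 3 controls, as they did in 18.8% of all rows. The rises were larger than the falls. The median change was 0.80 among the rises and −0.53 among the falls, and 66 rises but 9 falls reached 2-fold. Most of the response was small: 41 rises and 54 falls were under 0.5 in size, 86 rises and 54 falls lay between 0.5 and 1, 54 rises and 9 falls between 1 and 2, and 12 rises and 0 falls were over 2. The median change over all rows was −0.04. Leaving out 1 array at a time lowered the number of calls. Omitting control replicate 1, 2 or 3 left 208, 180 or 194 calls, and omitting TOLS2 replicate 1, 2 or 3 left 298, 177 or 173. No call shared with these fits changed direction.

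**Figure D1:**
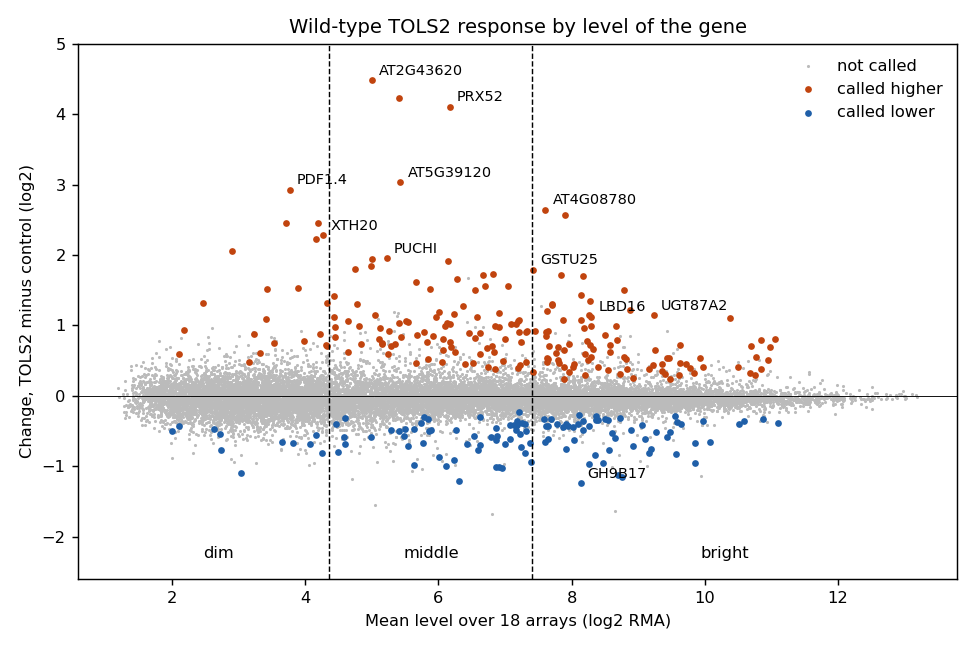
Change with TOLS2 in wild type (log2, vertical axis) against the mean level over 18 arrays (log2 RMA, horizontal axis), 1 point per gene, with dashed lines at the boundaries 4.36 and 7.41 of the dim, middle and bright terciles. Points called higher reach 4.48 and those called lower reach −1.24, and calls thin out below a level of about 4.

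Rows were split into terciles of 5574 by their mean level over all 18 arrays, with boundaries at 4.36 and 7.41. The brightness of a probe set depends on its probes as well as on its transcript, so the terciles order rows by signal and not by transcript number. In the dim tercile 32 rows were called (0.574%), 21 higher (0.377%) and 11 lower (0.197%). In the middle tercile 138 were called (2.48%), 86 higher (1.54%) and 52 lower (0.933%). In the bright tercile 140 were called (2.51%), 86 higher (1.54%) and 54 lower (0.969%). The share of calls that were rises was 65.6%, 62.3% and 61.4% from dim to bright.

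Precision differed between the terciles. The median standard error (SE) of the change was 0.18 in the dim tercile, 0.13 in the middle and 0.08 in the bright, and the smallest called change in size was 0.43, 0.24 and 0.24. The 95% confidence interval of the change lay inside ±0.5 for 43.1% of dim rows, 70.9% of middle rows and 90.4% of bright rows. A change of 0.5 was therefore bounded for most bright rows and for 43.1% of dim rows only. The interval lay inside ±1 for 96.1%, 95.8% and 98.2% of rows, so signal changes of 2-fold or more were bounded in nearly all rows. These intervals bound the signal of a row. How closely the signal of dim rows, at a median level of 3.06, follows their transcripts was not tested.

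Sizes of the called changes also differed with level. The median rise was 1.09 in the dim tercile, 0.94 in the middle and 0.60 in the bright, and the median fall was −0.65, −0.58 and −0.44. With their larger SE, dim rows in general needed a larger change to be called. These medians of called rows therefore do not show a larger response at dim levels. Rises of 2-fold or more numbered 11, 37 and 18 from dim to bright. By deciles of level, the share of rows called ran from 0.299% in the dimmest decile to 3.11% in the seventh and the eighth, and was 1.85% in the brightest. The lower count in the dim tercile held in each alternative that kept those rows, where it was 20 to 67 against 80 to 229 in the middle tercile and 63 to 261 in the bright tercile.

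**Figure D2:**
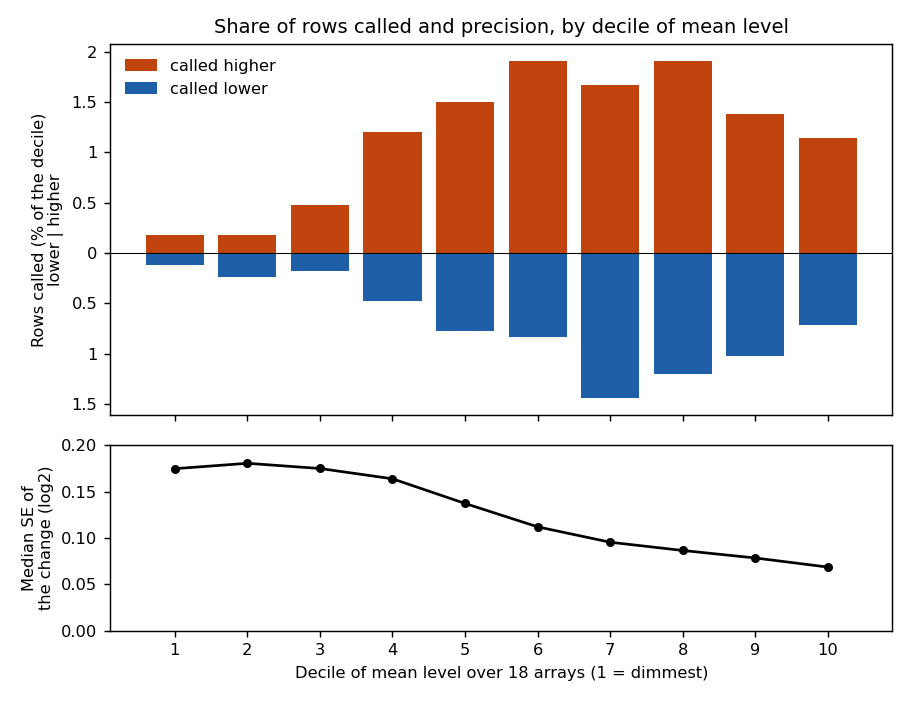
Share of rows called higher (upward bars) or lower (downward bars) in each decile of mean level (percent of rows, upper panel) and the median standard error of the change in log2 units (lower panel). The share called is lowest in the dimmest decile, at 0.179% higher and 0.12% lower, where the median SE is 0.17, and the SE falls to 0.07 in the brightest decile.

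Levels in the control arrays placed most responding rows above the dim range before treatment. Of the 193 rises, 25 had a control mean below 4.36, 88 lay between the boundaries and 80 above 7.41. With TOLS2, 15 of the rises went from the dim to the middle range, 2 from the dim to the bright range and 32 from the middle to the bright range, and 144 stayed in their range. Of the 117 falls, 12 went from bright to middle and 6 from middle to dim, and 99 stayed.

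The largest called rises and falls of each tercile were named with their arrays. Among dim rows the largest rise was that of PDF1.4, a gene of the plant defensin family of small cysteine-rich secreted peptides. Its control arrays read 3.44, 3.11 and 2.84 and its TOLS2 arrays 5.10, 6.48 and 6.61. TOLS2 replicate 1 was the lowest of the treated arrays and still lay above each control. The change was 2.93 (SE 0.36, n = 3, limma adjusted p = 0.000309), or 7.61-fold. XTH20, which encodes a xyloglucan endotransglucosylase/hydrolase that cuts and rejoins wall xyloglucan, read 3.57, 3.12 and 3.21 in control and 4.87, 6.03 and 5.84 with TOLS2. Here too TOLS2 replicate 1 was the lowest treated array, and the groups did not overlap (change 2.28, SE 0.38, limma adjusted p = 0.00466). Other dim loci that carry only a locus tag in the annotation rose by similar amounts, AT3G57460 by 2.46, AT1G21520 by 2.45 and AT5G61890 by 2.23.

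The falls in the dim tercile were smaller. AT1G49715 read 3.45, 3.46 and 3.00 in control and 2.06, 2.62 and 1.93 with TOLS2 (change −1.1, limma adjusted p = 0.0186). AT5G45120 fell by 0.81 and AT2G22241 fell by 0.77. The call of AT2G22241 ended without any 1 of the 6 arrays (adjusted p 0.0767 to 0.145), and that of AT1G49715 ended on omitting either of control replicates 1 and 2 or of TOLS2 replicates 1 and 3 (0.0665 to 0.106). The call of AT5G45120 held without each array.

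The middle tercile held the largest rises of all. AT2G43620 read 3.53, 3.79 and 3.28 in control and 8.21, 7.77 and 8.07 with TOLS2. PRX52, which encodes a secreted class III peroxidase, read 4.86, 4.74 and 4.57 in control and 8.52, 8.98 and 9.0 with TOLS2. In both genes each treated array lay more than 3 log2 units above each control. The change of PRX52 was 4.11 (SE 0.22, n = 3, limma adjusted p = 5.41e-08) and that of AT2G43620 was 4.48 (SE 0.21, adjusted p = 3.07e-08). AT1G65500 varied more among controls, which read 5.21, 4.01 and 3.83, and read 8.04, 8.66 and 9.05 with TOLS2 (change 4.24). AT5G39120 rose by 3.03 with TOLS2 arrays at 6.59, 8.38 and 8.54, and its SE of 0.65 was the largest among the named rises. Its call ended without any 1 array except TOLS2 replicate 1 (limma adjusted p 0.0612 to 0.128).

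PUCHI was the fifth largest rise of the middle tercile. Its control arrays read 4.68, 4.15 and 4.85 and its TOLS2 arrays 6.52, 6.45 and 6.58, so that the treated arrays lay close together and above all controls. The change was 1.96 (SE 0.15, n = 3, limma adjusted p = 3.63e-06), or 3.89-fold. The largest falls of the middle tercile were AT4G00165, AT5G19970 and AT5G41280. AT4G00165 read 6.48, 6.91 and 6.83 in control and 5.60, 5.58 and 5.42 with TOLS2 (change −1.21, limma adjusted p = 0.00222). AT5G19970 fell by 1.03 with an SE of 0.10, and AT5G41280 fell by 1.01 with an SE of 0.18. The call of AT5G41280 ended without the replicate 1 arrays of all groups (limma adjusted p = 0.144).

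In the bright tercile AT4G08780 read 7.45, 7.22 and 7.43 in control and 9.90, 9.94 and 10.19 with TOLS2. AT4G36430 read 6.98, 7.09 and 7.18 in control and 9.45, 9.65 and 9.86 with TOLS2. GSTU25, which encodes a tau-class glutathione S-transferase, an enzyme that joins glutathione to reactive compounds, read 6.92, 6.60 and 6.53 in control and 8.65, 8.41 and 8.38 with TOLS2. None of these groups overlapped, and the changes were 2.64, 2.57 and 1.79 (SE 0.28, 0.17 and 0.11). AT1G55990 rose by 1.72 from widely spread controls of 8.17, 6.98 and 7.61, and AT5G14130 rose by 1.70. Among the falls, GH9B17, which encodes an endoglucanase of glycosyl hydrolase family 9 that acts on wall glucans, read 8.56, 8.75 and 8.81 in control and 7.57, 7.38 and 7.46 with TOLS2 (change −1.24, SE 0.20, n = 3, limma adjusted p = 0.00368). AT5G62420 fell by 1.16 and AT3G45080 fell by 1.12. The call of AT5G62420 ended without the replicate 1 arrays of all groups (limma adjusted p = 0.0593).

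**Figure D3:**
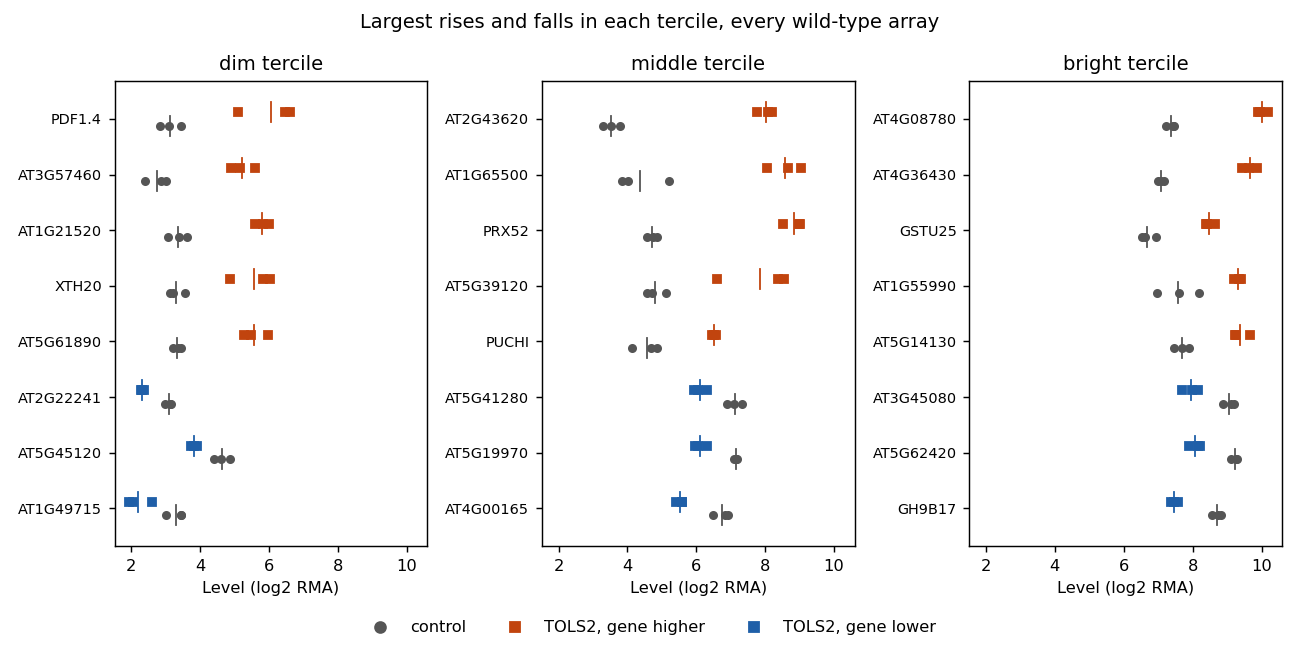
Level of the 5 largest rises and 3 largest falls in each tercile (log2 RMA), with 1 point per wild-type array, circles for control and squares for TOLS2, and a short line at each group's mean. The 3 treated and 3 control arrays of each gene do not overlap, and the 5 rises of the middle tercile span changes of 1.96 to 4.48.

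Not every change of 2-fold or more was called. Of 91 rows whose change was at least 1 in size, 75 were called and 16 were not, 11 of these in the middle tercile, 5 in the bright tercile and 0 in the dim tercile. The median SD between replicates was 0.42 in the 16 and 0.22 in the 75. Of these 16, 3 genes with a name are given here, chosen after their values were seen. SWEET11, which encodes a sucrose exporter, read 9.35, 10.14 and 9.68 in control and 7.74, 8.51 and 8.0 with TOLS2. The wild-type groups did not overlap, but the SE from all 18 arrays was 0.62 and the adjusted p in limma was 0.263 (change −1.64). The serine carboxypeptidase-like gene scpl22 differed by −1.19 (limma adjusted p = 0.0509). The phi-class glutathione S-transferase gene GSTF3 read 5.33, 6.89 and 6.99 with TOLS2 against controls of up to 5.78 (change 1.1, limma adjusted p = 0.232), so its groups overlapped through TOLS2 replicate 1.

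Functions were described with 87 gene lists, 79 of which had a measured gene. A name or family could be read for few genes: 1799 of the 16542 genes carried a name in the annotation and 14743 only a locus tag, and the lists together held 927 genes. Among the named genes 27 rose and 23 fell (2.78%), among those with only a locus tag 166 rose and 94 fell (1.76%), and over all genes 193 rose (1.17%) and 117 fell (0.707%), together 1.87%. The median change over all genes was −0.04. Each list therefore covers only part of its family, and counts below are of the members found by a name or synonym. The large rises AT2G43620, AT4G08780, AT4G36430, AT5G14130 and AT5G39120 were in no list, so family counts can miss responding members. Genes in a list were called more often (4.31%) than genes in no list (1.73%). The lists and members were chosen with earlier results of these data known. This comparison, and the shares given below for broad functions, are therefore not independent tests.

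Of the 43 genes of small secreted peptides (CLE, RALF and related signalling peptides), none was called, and their median change was 0.02. The member with the highest change, RALFL18, read 5.81, 5.69 and 5.58 in control and 5.92, 6.64 and 6.71 with TOLS2 (change 0.73, limma adjusted p = 0.194). It is named here after its values were seen. No row was named for the TOLS2 gene or for RLK7. None of the 5 leucine-rich repeat receptor kinases, 5 other receptor-like kinases or 7 calcium-binding proteins of the calcium signalling list was called, with medians of −0.03, −0.03 and 0.04. At an unadjusted p under 0.05, 4 of the peptide genes were higher and 3 lower, together 16.3% of the list beside 12% of all rows. One further receptor kinase gene, AT1G08590 (PXL1, a close relative of the peptide receptor PXY), fell by 0.50 (SE 0.07, n = 3, limma adjusted p = 0.00202). It was chosen after its values were seen. The gene had 2 rows, of which only the brighter was called. That call ended in the fit of the wild-type arrays alone (limma adjusted p = 0.0654).

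Among transcription factor lists 5 of 130 genes were called (3.85%, beside 1.87% over all genes), 3 higher and 2 lower. Beside PUCHI, the AP2/ERF list had 1 fall among its 8 members, tny (TINY), which read 9.42, 9.55 and 9.70 in control and 9.13, 8.93 and 9.05 with TOLS2 (change −0.52, limma adjusted p = 0.00293). LBD16 read 8.18, 8.09 and 8.25 in control and 9.21, 9.33 and 9.36 with TOLS2. The groups were separated by nearly 1 log2 unit (change 1.12, SE 0.09, n = 3, limma adjusted p = 2.9e-06). The related gene LBD29, which also acts in lateral root initiation, differed by −0.41 and was not called (limma adjusted p = 0.184); its controls read 8.68, 8.68 and 8.75 and its TOLS2 arrays 8.17, 8.30 and 8.39. It was chosen after its values were seen.

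Of 7 WRKY factors, a family with many members in defence, 1 rose. WRKY41 read 3.82, 4.07 and 3.52 in control and 4.44, 4.52 and 4.80 with TOLS2 (change 0.78, limma adjusted p = 0.0174). Its call ended on omitting any of control replicates 1 and 3 and TOLS2 replicates 2 and 3 (0.0505 to 0.0989). Of 23 bZIP factors 1 fell, bZIP58, which read 7.49, 7.65 and 7.59 in control and 6.69, 6.76 and 6.85 with TOLS2 (change −0.81, SE 0.09, n = 3, limma adjusted p = 0.000127). None of the 15 bHLH factors or the 67 AGAMOUS-like MADS-box factors was called, and their medians were −0.05 for both; 51 of the 67 lay in the dim tercile.

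Hormone lists showed 1 call in 43 genes (2.33%, near the 1.87% over all genes). It lay among the 20 auxin response and transport genes, whose median change was −0.04. GH3.1, of a family of enzymes that join amino acids to auxin and other hormones, read 8.22, 7.97 and 8.0 in control and 7.51, 7.35 and 7.04 with TOLS2 (change −0.76, limma adjusted p = 0.0388). Its call ended without any 1 array except TOLS2 replicate 1 (0.0942 to 0.181). None of the 8 cytokinin response regulators, 8 abscisic acid genes, 3 gibberellin genes or 3 jasmonate genes was called. The cytokinin list had a median of −0.19, with 6 of its 8 members in the dim tercile.

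Secreted protein lists had 4 calls in 109 genes (3.67%, beside 1.87% over all genes), all higher. Of the 8 class III peroxidase genes found by a name or synonym, whose products use hydrogen peroxide in the wall, 3 rose. None fell, and the median change was 0.26. Beside PRX52, Prx37 read 10.98, 10.80 and 10.91 in control and 11.58, 11.67 and 11.85 with TOLS2 (change 0.80, SE 0.09, n = 3, limma adjusted p = 0.000208). AT5G64120 (PRX71) rose by 0.71 from controls near 10.8 (limma adjusted p = 0.0335), and its call ended without any 1 array except TOLS2 replicate 1 (0.0601 to 0.15). Of 88 defensin-like genes, a family of small cysteine-rich peptides, 80 lay in the dim tercile, 1 was called (PDF1.4), and the median was −0.04. None of the 7 subtilases, proteases that also process peptide precursors, was called.

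Cell wall lists had the highest share of calls among the broad functions of more than 4 genes. This ranking was not adjusted for level or for the make-up of the lists. In the dim tercile, where calls were rare, lay 28 of the wall genes but 87 of the 109 secreted protein genes. Of their 102 genes 10 were called (9.8%, beside 1.87% over all genes and 4.31% over all listed genes), 3 higher and 7 lower. Of 10 xyloglucan endotransglucosylase genes, 1 rose and 3 fell, and the median was −0.04. XTH20, in the dim tercile, rose, while XTH33 read 7.68, 7.74 and 7.53 in control and 6.58, 6.74 and 6.80 with TOLS2 (change −0.94, SE 0.12, n = 3, limma adjusted p = 0.00041). XTH21 fell by 0.53 (limma adjusted p = 0.00955) and XTH19 by 0.41 (limma adjusted p = 0.0471, chosen after its values were seen). The call of XTH21 ended without TOLS2 replicate 2 or 3 (0.0563 and 0.0631) and that of XTH19 without any 1 array except TOLS2 replicate 1 (0.124 to 0.198). Members of 1 enzyme family thus moved in opposite directions, and neither the rise of XTH20 nor the fall of XTH33 ended without any 1 array.

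Expansins, which loosen walls without cutting them, also showed both directions. Of 24 members EXPA4 rose by 0.59, from 7.97, 7.98 and 7.84 to 8.45, 8.61 and 8.50 (limma adjusted p = 0.00664). EXLA2, an expansin-like gene, fell by 0.77, from 7.07, 6.84 and 6.79 to 6.32, 6.02 and 6.05 (limma adjusted p = 0.00566). The other 22 were not called, and the family's median was 0.06. Of 19 GH9 endoglucanase genes only GH9B17 was called, and the median was −0.15, below the −0.04 over all genes. Of 25 TBL genes, whose named members acetylate wall polysaccharides, 2 fell by small amounts, TBL19 by 0.40 and TBL33 by 0.34, with a family median of −0.12. The calls of both TBL genes ended without any 1 of the 6 arrays (limma adjusted p 0.0517 to 0.133 and 0.0506 to 0.11). Of the pair of laccase genes measured, LAC16, of a family of phenol-oxidising wall enzymes, read 8.08, 7.73 and 8.20 in control and 8.95, 9.17 and 9.35 with TOLS2 (change 1.15, SE 0.17, n = 3, limma adjusted p = 0.00222). The 12 measured genes of the cellulose synthase and related list were cellulose synthase-like (CSL) genes, COB, GUT2 and IRX15. No cellulose synthase (CESA) gene was among them. None of the 12, and none of the 6 pectin methylesterase and inhibitor genes, was called.

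Detoxification lists had 8 calls in 97 genes (8.25%, beside 1.87% over all genes), 6 higher and 2 lower. Of 55 UDP-glycosyltransferases, which attach sugars to small molecules, 4 rose and none fell, and the family median was 0.01. UGT87A2 read 9.0, 8.73 and 9.20 in control and 9.98, 10.18 and 10.20 with TOLS2 (change 1.14, SE 0.12, n = 3, limma adjusted p = 9.84e-05). UGT73B5 rose by 0.74 (limma adjusted p = 0.00104), UGT73B3 by 0.64 (limma adjusted p = 0.0176) and UGT73B4 by 0.91 (limma adjusted p = 0.019, chosen after its values were seen). Of the 4 rises, 3 thus lay in the closely related 73B group. Their near-identical copies could share probes, which was not tested. The call of UGT73B3 ended on omitting any of control replicates 1 and 2 and TOLS2 replicates 2 and 3 (0.0589 to 0.0812), and that of UGT73B4 on omitting any of control replicates 2 and 3 and TOLS2 replicates 1 and 3 (0.0513 to 0.105).

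Of 14 glutathione S-transferases 2 rose and 1 fell, with a median of −0.01. Beside GSTU25, GSTU22 read 7.98, 7.90 and 8.06 in control and 8.67, 8.66 and 8.75 with TOLS2 (change 0.72, SE 0.10, n = 3, limma adjusted p = 0.0013). GSTU27 fell by 0.28 (limma adjusted p = 0.0103), the smallest among the called genes named, and its call ended on omitting any of control replicates 2 and 3 and TOLS2 replicate 3 (0.0586 to 0.065). Of 26 cytochrome P450 genes, 17 of them in the dim tercile, CYP718 fell by 0.70 (limma adjusted p = 0.0374). That call ended on omitting any of control replicates 2 and 3 and TOLS2 replicates 1 and 3 (0.104 to 0.166).

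Metabolic lists had 5 calls in 77 genes (6.49%, beside 1.87% over all genes), all higher. BGLU27, of the 24 beta-glucosidase genes, whose products release sugars from glycosides, read 2.87, 3.29 and 2.80 in control and 4.66, 4.66 and 4.22 with TOLS2 (change 1.52, SE 0.23, n = 3, limma adjusted p = 0.00228). MSRB8, of a family of enzymes that repair oxidised methionine, read 7.07, 6.82 and 6.91 in control and 7.68, 8.13 and 8.19 with TOLS2 (change 1.06, limma adjusted p = 0.0091), and the other 5 members of its family were not called. Its call ended on omitting any of control replicate 2 and TOLS2 replicates 2 and 3 (0.0534 to 0.0593). The serine carboxypeptidase-like gene scpl28 rose by 0.79 from 10.90, 10.38 and 10.83 to 11.43, 11.51 and 11.53 (limma adjusted p = 0.00775), and its 31 relatives were not called.

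CCR2, which encodes a cinnamoyl-CoA reductase of lignin synthesis, rose by 0.55 (limma adjusted p = 0.0382), and the aldehyde dehydrogenase gene ALDH7B4 rose by 0.39 (limma adjusted p = 0.0379). Both calls ended without any 1 array except TOLS2 replicate 1 (0.0641 to 0.185 for CCR2 and 0.0942 to 0.153 for ALDH7B4).

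**Figure D4:**
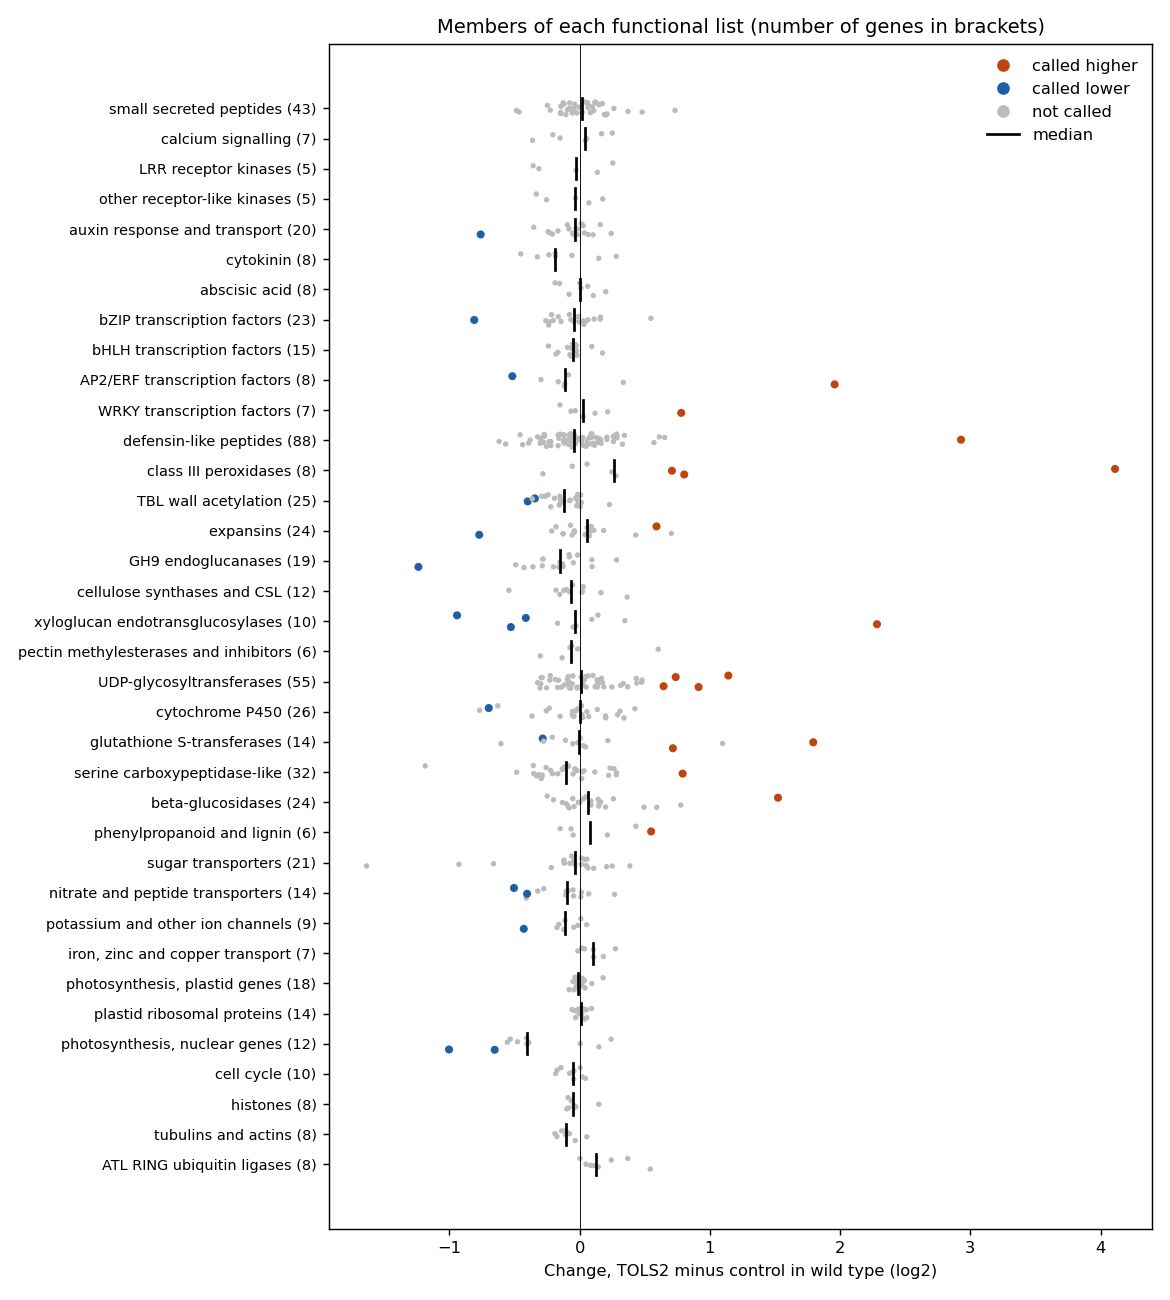
Change with TOLS2 in wild type (log2) of every measured member of 36 gene lists, those with at least 5 genes that were not added after the annotation was seen, 1 point per gene, with the list's median as a black line and the number of genes in brackets. Called members number 1 to 4 in 19 of these lists and 0 in the other 17, and the xyloglucan endotransglucosylases run from −0.94 to 2.28.

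Transport lists had 3 calls in 53 genes (5.66%, beside 1.87% over all genes), all lower. Of 14 nitrate and peptide transporter genes 2 fell. AT1G33440 (NPF4.4) read 7.46, 7.48 and 7.56 in control and 7.10, 7.11 and 7.07 with TOLS2 (change −0.40, SE 0.06, n = 3, limma adjusted p = 0.0025). AT3G21670 (NPF6.4) fell by 0.50 (limma adjusted p = 0.0335), and its call ended without any 1 array except TOLS2 replicate 2 (0.0542 to 0.168). CHX16, a cation/proton exchanger, fell by 0.43 (limma adjusted p = 0.0316), and its call ended without any 1 of the 6 arrays (0.0704 to 0.136). None of the 21 sugar transporters or the 7 iron, zinc and copper transporters was called.

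Core cellular functions had 3 calls in 227 genes (1.32%, near the 1.87% over all genes), all lower, and 191 of the 227 (84.1%) had a 95% confidence interval inside ±0.5, beside 68.1% of all rows. None of the 10 cell cycle genes, 8 histones, 8 tubulins and actins or 16 ubiquitin-conjugating enzymes was called. Nor was any of the 14 mediator subunits, 11 genes of the autophagy list or 15 exocyst and SEC genes. The medians of these lists lay between −0.11 and 0.03. Of the 227 genes, 140 lay in the bright tercile. The 4 reference genes differed by −0.11 to −0.08. The F-box gene AFR fell by 0.33 (limma adjusted p = 0.0462), and its call ended without any 1 array except control replicate 1 (0.0762 to 0.199). AFR had 2 rows, of which only the brighter was called. IQD22, of a family of calmodulin-binding proteins, was the only call among 17 IQ-domain genes and among the 88 genes of all signalling lists (1.14%), and rose by 0.34 (limma adjusted p = 0.0345), a call that ended without any 1 of the 6 arrays (0.0568 to 0.136).

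Nuclear genes of photosynthesis had the list median farthest below 0 among lists with at least 5 genes, −0.41 over 12 genes against −0.04 over all genes. LHCB4.2, of a light-harvesting antenna protein, read 6.47, 6.73 and 6.81 in control and 5.52, 5.56 and 5.93 with TOLS2 (change −1.0, SE 0.23, n = 3, limma adjusted p = 0.0333). RCA, which encodes rubisco activase, read 7.80, 7.92 and 8.13 in control and 7.37, 7.12 and 7.40 with TOLS2 (change −0.65, limma adjusted p = 0.0355). The other 10 were not called. The call of LHCB4.2 ended without any 1 array except TOLS2 replicate 3 (0.0547 to 0.131) and that of RCA without any 1 of the 6 arrays (0.0531 to 0.162). The 18 photosynthesis genes encoded in the plastid had a median of −0.01 and a range of −0.08 to 0.18, and the 14 plastid ribosomal protein genes a median of 0.01. None of the 63 plastid-encoded genes was called.

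Markers of root cell types could be read for few genes. Of the marker lists written, 10 genes had a row. EXPA7 and EXPA18, expressed in root hair cells, read 8.88 ± 0.05 and 10.95 ± 0.0014 in control (SD, n = 3) and differed by 0.07 and 0.09. The ground tissue factor JKD read 10.07 ± 0.07 and differed by −0.16. The dividing-cell kinase genes AUR1 and AUR2 read 10.09 ± 0.04 and 8.18 ± 0.06 and differed by 0.00 and −0.14, and AGL42 and BBM, expressed around the stem cell niche, differed by −0.10 and −0.12. None of these 7 was called (limma adjusted p 0.428 to 0.985). The pericycle and xylem pole list had 2 genes with a row, LBD16, which rose by 1.12, and LBD29, which differed by −0.41 and was not called, both with their arrays given above. Each of these markers lay in the middle or the bright tercile. RCA, the only shoot marker with a row, lay in the bright tercile and fell as given above. Whether the share of any cell type moved with the changes above was not tested.

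Several called genes lay next to each other on the chromosomes in the order of the RefSeq annotation of assembly TAIR10.1. Among 10245 pairs of neighbouring protein-coding genes with both members measured, 9 had both called, 5 with both higher, 2 with both lower and 2 in opposite directions. Of 165 called rises with a measured neighbour, 9 (5.45%) had a neighbour that rose, where 1.75% of all 13912 such genes had one. Of 95 called falls with a measured neighbour, 4 (4.21%) had a neighbour that fell, where 0.913% of all had one. Near-identical neighbours can share probes, and their part in these counts was not tested.

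The neighbours were chosen after their values were seen. Prx37 and AT4G08780 rose by 0.80 and 2.64 side by side on chromosome 4. On chromosome 5 AT5G44575, AT5G44578 and AT5G44580 rose by 0.91, 0.73 and 1.31. AT5G38020 and AT5G38030 rose by 0.96 and 0.66, and UGT73B5 and UGT73B4 are neighbours on chromosome 2. The sulfotransferase gene AT3G45070 (SULT202B1) and AT3G45080 fell by 0.58 and 1.12 on chromosome 3, and AT1G15630 and AT1G15640 fell by 0.58 and 0.80 on chromosome 1. In the opposite pairs AT3G46270 fell by 0.59 beside AT3G46280, which rose by 0.39, and AT5G58900 fell by 0.36 beside LAC16, which rose.

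Some of these calls ended when 1 array was left out. That of AT5G44575 ended without control replicate 2 or TOLS2 replicate 2 (limma adjusted p 0.0665 at most) and that of AT5G44580 without control replicate 2 (0.0605). Those of AT1G15630 and AT5G58900 ended without any 1 of the 6 arrays (0.051 to 0.169 and 0.0762 to 0.184). That of AT3G46270 ended without any 1 array except TOLS2 replicate 1 (0.0855 to 0.132), that of AT3G46280 except TOLS2 replicate 2 (0.0737 to 0.177) and that of AT5G38030 except control replicate 2 (0.0506 to 0.123). That of AT3G45070 ended on omitting any of control replicates 1 and 2 and TOLS2 replicates 2 and 3 (0.0581 to 0.115).

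A few other called genes with a name and a known product lay outside these lists and were chosen after their values were seen. LPR2, a multicopper oxidase gene of the root response to low phosphate, read 6.84, 6.92 and 6.73 in control and 7.28, 7.41 and 7.28 with TOLS2 (change 0.49, SE 0.07, n = 3, limma adjusted p = 0.0013). DJ1F, of the DJ-1 protein family, fell by 0.75 (limma adjusted p = 0.00627). BAT1, an acyltransferase gene linked to brassinosteroids, fell by 0.72 (limma adjusted p = 0.0325), and its call ended without any 1 of the 6 arrays (0.0622 to 0.133).

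The wild-type response was set beside the same contrast in the mutants. The 193 rises had a median change of 0.80 in wild type, 0.11 in rlk7-3 and 0.63 in puchi-2, and the 117 falls had medians of −0.53, −0.01 and −0.42. The wild-type medians were fixed by the choice of rows. The medians over all genes were −0.04, 0.06 and −0.01. The difference of the rlk7-3 response from the wild-type response was called for 63 of the 16722 rows (0.377%), and 58 of these were among the 310, 9 in the dim tercile, 26 in the middle and 23 in the bright. This difference uses the wild-type arrays that chose the 310. In rlk7-3 itself 1 gene was called, GSTU25, with a change of 0.83 (limma adjusted p = 0.0493) beside 1.79 in wild type. The changes of GSTU22, UGT73B5 and UGT73B3 in rlk7-3 were 0.67, 0.68 and 0.53, and none of these 3 was called in rlk7-3 (limma adjusted p = 0.0555, 0.0555 and 0.256). The tests of their difference from wild type (limma adjusted p = 0.939, 0.923 and 0.865) do not show that they were alike. The difference of the puchi-2 response was called for 0 rows (0.0%) in limma, with 681 rows (4.07%) at an unadjusted p under 0.05, beside 10.5% of rows for the rlk7-3 difference.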

How the data were processed

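RNA of 18 pooled root tip samples was measured on single-colour arrays with biotin-labelled sense-strand targets, per the labels. The authors deposited log2 levels per probe set made with RMA, per the submitters' processing notes. RMA equalises the distribution of all arrays, which hides a shift common to most genes. How probes were grouped into sets, and the genome build, are not stated in what was used here. The deposited values were not altered. Genes came from the platform annotation and updated with RefSeq names (assembly TAIR10.1), found for 16574 rows of 1 gene.

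Limma 3.58.1 in R 4.3.3 fitted the means of the 6 groups across 18 arrays with 12 residual degrees of freedom (lmFit, eBayes, two-sided tests). Where a gene had several rows, the brightest over all arrays stood for it, as it did for 154 genes. The genes given by name are PUCHI, then in each level tercile the 5 rises and 3 falls of greatest size among called rows without overlap between groups, then at most 3 called members per list, taken by smallest p. Where a gene was picked after its values were seen, the text says so. The members and lists were chosen with earlier results of these data known, and 17 lists were added after the annotation was seen. False matches (21) were dropped from the lists. The fit was tested on simulated data. Precision is limited by the 3 arrays of a group. No table of promoter or protein sequences was used here.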

Additional observations from a re-analysis of the deposited data

Results flagged for a closer look

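The response of 19 named genes to TOLS2 differed between wild type and rlk7-3 by limma's test of the difference itself (adjusted p under 0.05). Values are the rlk7-3 change minus the wild-type change on the log2 scale. In the dim tercile the rises differed by −2.63 (PDF1.4), −2.48 (AT3G57460), −2.45 (AT5G61890) and −2.20 (AT1G21520). Rises of the middle tercile differed by −4.45 (AT2G43620), −4.27 (AT1G65500), −3.82 (PRX52) and −1.80 (PUCHI). Those of the bright tercile differed by −2.85 (AT4G08780), −2.40 (AT4G36430), −1.66 (AT5G14130), −1.32 (AT5G38020), −1.08 (LBD16), −0.97 (GSTU25) and −0.69 (Prx37). Genes that fell in wild type differed by 1.20 (AT5G19970), 1.09 (AT3G45080), 1.03 (bZIP58) and 0.45 (AT1G33440). These genes were named for their wild-type values, which enter the difference. Rows without an annotated gene also responded: of the 20927 such rows, 255 were called in wild type in a fit over every row (1.22%), 166 higher and 89 lower, beside 1.57% of the 1-gene rows in the same fit.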

How the results depend on the processing

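The 310 calls became 557 with array weights and 170 from the 6 wild-type arrays alone, of which 143 were shared, and lay between 263 and 454 in the other alternatives that kept all arrays. Calls shared with any alternative kept their direction. With array weights 317 rows were higher, 240 lower, 67 were called in the dim tercile, 229 in the middle and 261 in the bright, and the rlk7-3 difference was called for 97. From wild-type arrays alone 125 were higher, 45 lower, 85 were called in the middle tercile and 63 in the bright. With an intensity trend and robust prior 179 were lower and 239 bright rows were called, and without the dim tercile 216 bright rows, where fewer rows were tested. With the replicate number as a block 454 rows were called, 199 of them lower and 218 bright. Whether the replicate numbers pair the wild-type samples was left unsettled. Correlations of same-numbered deviations were 0.16, −0.01 and 0.11, and those of differently numbered arrays ran from −0.15 to 0.05. Leaving out replicates gave 173 to 298 calls, 112 to 194 higher and 55 to 104 lower, with 20 to 41 dim, 80 to 124 middle and 69 to 133 bright, and 36 to 54 calls of the rlk7-3 difference (27 without the replicate 1 arrays of all groups). Arrays centred on their median moved the median of all rows to −0.02. The causes were not tested. Of 73 called genes named, 32 stayed called under each alternative run for them and 41 lost the call under at least 1, and none changed direction. Centring ended the calls of GH3.1, TBL33, TBL19, XTH19, AT3G46280, AT1G15630 and AT5G58900, and the replicate block those of CCR2 and AT1G15630. The fit of wild-type arrays alone ended 30 of the 73 and that without the replicate 1 arrays of all groups 26. Dim rows limit what could be seen, since their median SE was 0.18.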
